A study of Mus musculus with 46 samples.

Results

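E076, E203, E251, E110 and E031 are candidate cis-regulatory elements (cCREs) from the Tfcp2l1 locus on mouse chromosome 1. Of the cCREs of that locus with enough data, their effect on reporter activity varied most between oriented promoters. Each orientation of a promoter was counted apart, so this variation includes differences between the orientations of the same promoter. They were taken from the 232 cCREs of the Tfcp2l1 library, which is part of the 423 cCREs of the whole upstream assay. Members were chosen by their boost index in constructs where the cCRE came first and the promoter second (EP order). This index compares a construct, on the log2 scale, with the median of all cCRE constructs that hold the promoter in that orientation and order. For each cCRE with enough data, the variance of the boost index over oriented promoters was taken, less the part expected from replicate error. Among 176 cCREs this excess variance was 10.8 for E076 over 4 oriented promoters, 8.38 for E203 over 3, 6.82 for E251 over 6, 6.03 for E110 over 5 and 4.05 for E031 over 15. Without regard to orientation, these were 4 different promoters for E076, 2 for E203, 4 for E251, 4 for E110 and 12 for E031. E031 was the last cCRE inside the limit, and E133 with 3.69, E293 with 3.62 and E017 with 3.29 followed. Boost indices in EP order are therefore a description here and were not tested.

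Activity was measured with a massively parallel reporter assay in E14TG2a cells, an established line of mouse embryonic stem cells grown in 2i and LIF, conditions that hold them in naive pluripotency. The cells received the Tfcp2l1 plasmid library by nucleofection, and reporter RNA was collected after 24 h. The 3 cDNA samples used are the biological replicates of this mix, out of 46 samples in the series, and the plasmid input was sequenced as 2 pDNA samples. All 3 replicates carry the same genotype and treatment, so every comparison is between constructs within the same cells. In this transient assay the reporters were not placed in the chromosome, and no endogenous gene expression was measured. No negative control fragments were transfected with this mix, so the promoter fragment alone and the median construct serve as background.

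Enhancers are stretches of DNA that bind transcription factors and raise transcription from a promoter, the stretch around the start of a gene where RNA polymerase begins. A reporter assay takes a fragment out of its place in the genome and joins it to a barcoded transcript, so that the barcode count in RNA over the count in plasmid DNA gives the activity of that fragment or pair. Activity of a pair can depend on which promoter is used, on which fragment lies next to the reporter, and on the orientation of each. The Tfcp2l1 gene encodes a transcription factor of naive pluripotent cells. Its neighbours on the chromosome include Clasp1, which encodes a microtubule-binding protein, Gli2, a transcription factor of Hedgehog signalling, and Ptpn4, a tyrosine phosphatase.

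The deposited coordinates, in mm10 (GRCm38), place start and end of every fragment 450 bp apart. E031 at chr1:118458928-118459378 lay within Clasp1 and also overlapped the lncRNA gene 2900060B14Rik, whose RefSeq start fell inside the fragment. E076 at chr1:118759522-118759972 was intergenic, 74089 bp from Gli2 as the nearest gene. E110 at chr1:119074945-119075395 was intergenic too, 20540 bp from Gli2. E203 at chr1:119685752-119686202 lay within Ptpn4, and E251 at chr1:120138860-120139310 within the protein-coding gene 3110009E18Rik. Exons and introns were not told apart here. The promoter that recurs below, P016 at chr1:119328824-119329274, overlapped no RefSeq gene, and its nearest gene was Gm33388 at 8180 bp. P033 at chr1:120504949-120505399 overlapped the start of Marco, which encodes a scavenger receptor of macrophages, and P018 at chr1:119504719-119505169 overlapped Ralb, a small GTPase gene. P022 at chr1:119837481-119837931 lay at the Ptpn4 gene.

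RefSeq windows (GRCm38.p6), each holding the bases around a gene's start, cover part of 3 fragments named in the results. They are printed 5′ to 3′ on the minus strand, in the direction of the RefSeq gene, because E031 had its highest boost index with P033 in one order and its second highest with P018 in the other. The end of E031 at chr1:118459216-118459378 has 163 bases, P033 at chr1:120504975-120505274 has 300 bases within the Marco window, and P018 at chr1:119504733-119505032 has 300 bases within the Ralb window. No sequence was available for P016, the promoter that recurs most below. Capitals mark matches to the searched motifs.
E031: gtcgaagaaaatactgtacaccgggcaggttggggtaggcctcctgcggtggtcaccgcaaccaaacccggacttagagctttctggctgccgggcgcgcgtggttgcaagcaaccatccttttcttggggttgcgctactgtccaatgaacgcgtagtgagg
P033: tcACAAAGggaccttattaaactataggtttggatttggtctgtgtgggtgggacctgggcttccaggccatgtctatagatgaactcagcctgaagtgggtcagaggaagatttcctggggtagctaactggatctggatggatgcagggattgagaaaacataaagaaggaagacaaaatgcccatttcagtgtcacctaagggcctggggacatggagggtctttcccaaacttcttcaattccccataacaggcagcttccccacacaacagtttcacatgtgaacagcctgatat
P018: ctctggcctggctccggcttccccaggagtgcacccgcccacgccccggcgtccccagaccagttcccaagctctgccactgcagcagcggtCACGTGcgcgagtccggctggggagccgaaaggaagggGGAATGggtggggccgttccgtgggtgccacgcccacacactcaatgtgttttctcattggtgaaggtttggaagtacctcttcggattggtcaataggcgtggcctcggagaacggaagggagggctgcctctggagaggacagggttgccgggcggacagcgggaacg
The 163 bases of E031 were 58.3% G or C with 12 CpG dinucleotides, and none of the searched motifs matched there. The P033 window was 47.3% G or C with 0 CpG, against a median of 52.7% over all 32851 RefSeq promoter windows, and held 1 match to ACAAAG, a SOX motif found in 18.7% of all windows. The P018 window was richer in G and C, at 65.3% with 22 CpG, and held 1 E-box CACGTG, found in 7.15% of all windows, and 1 TEAD motif GGAATG, found in 14.7%. Motifs were searched on both strands, and none of these 3 matches overlapped another. The others searched, with the share of windows that hold each, were TCAAGGTCA for ESRRB (0.423%), ATGCAAAT for the OCT4 octamer (1.74%), ACAATGG for SOX (3.66%), GGGTGTGG for KLF (3.56%), GGGGCGGGG for SP (11.4%), CCGGAAG for ETS (8.86%) and TGACGTCA for CRE (1.79%). To these were added TGANTCA for AP-1 (7.81%), AGGGGGC for CTCF (10.6%), TTCCNGGAA for STAT (1.15%), and longer motifs for TFCP2L1 (3.44%), NRF1 (0.971%) and YY1 (0.852%). Of 4 further promoter windows searched in the same way, P024 at Tmem177 held 3 matches to ACAAAG, and P025, P020 and P013 held none to any motif. A match describes the letters only.

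Fragment names carry the deposited orientation as + or -. What the sign refers to is not given in the sources used here, and it is not simply the genome strand. The Ralb promoter P018 alone had an activity of 6.52 in the + orientation and 1.04 in the - orientation, although Ralb lies on the minus strand of the genome. The same held for P024 at Tmem177 (2.71 and 0.187) and for P025 at Cfap221 (2.49 and 0.192), both on the minus strand. P007 at Nifk, a gene on the plus strand, was also higher in the + orientation (16.4 and 0.668). The weak P031 at C1ql2 (0.0378 and 0.0394) and P017 at Inhbb (0.0322 and 0.0586) were not. Orientations are therefore given as deposited.

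The 5 cCREs entered 59 EP constructs and 42 constructs in the other order, promoter first and cCRE second (PE). Of these, 16 EP and 10 PE constructs were listed at 0 in at least 1 replicate, so 43 and 32 had a boost index. Coverage was uneven, from 32 EP constructs of E031 and 13 of E251 down to 5 of E203, 5 of E110 and 4 of E076. Replicates correlated at r = 0.90, 0.90 and 0.91 over log2 activities of 50533 Tfcp2l1 constructs, which share fragments and are not independent. Among the 101 constructs of the 5 cCREs, 19 were at 0 in replicate 1, against 3 in replicate 2 and 11 in replicate 3. The error depended on the level. The median SD of log2 activity was 0.86 over the 37 constructs under 0.1, 0.36 over the 18 between 0.1 and 1, and 0.17 over the 20 with 1 or more. The number of barcodes behind a construct is unknown, and replicates of the same plasmid pool do not cover variation between the separate barcoded plasmids that carry a construct.

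Without a partner, no form of the 5 cCREs had a mean activity above 0.266. E076 had an activity of 0.0349 in the + and 0.0318 in the - orientation, E203+ had 0.0366, and E251 had 0.0276 and 0.0367, all below the median of 0.0957 over 419 oriented cCREs. E110 was above that median, at 0.266 and 0.218. E031 differed by orientation, with 0.208, 0.313 and 0.201 in the 3 replicates for E031+ and 0.0641, 0.0451 and 0.0464 for E031-, values that did not overlap. Rank placed E110+ 103rd and E031+ 116th of 419, and E251+ 395th.

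In EP order, each of the 5 cCREs had exactly 1 construct with a boost index of 2 or more. That makes 5 of 43, beside 16.2% of all 5065 EP constructs, and since the rule used these values nothing is read from the share. In 4 of the 5 the promoter was P016, and in the fifth it was P033. P016 was a frequent partner, with P016+ in 324 and P016- in 288 of all 5599 EP constructs. Its share among all EP constructs with such an index was not counted, so nothing is read from its recurrence. Without its highest construct, the boost indices ran from -1.55 to -0.21 for E076, from -0.56 to 0.05 for E203, from -1.64 to 0.17 for E251, from -0.71 to 1.97 for E110 and from -1.91 to 1.59 for E031. The large variance of each cCRE thus rested on 1 construct. For E251 at P016- and E031 at P033-, the opposite cCRE orientation had a replicate at 0. It was left out of the variance, so these high values come from a single orientation and are not an average of both. Boost indices of -1 or less were found in 10 of 43, beside 12.1% of all EP constructs.

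E076 was measured in the - orientation only. Before P016+, its activity was 2.94, 2.95 and 2.79 in the 3 replicates, against 0.0741, 0.102 and 0.0977 for P016+ alone. This is a boost index of 6.0 ± 0.51, rank 3 of the 324 cCRE constructs with P016+ in that order, and 32.0-fold the promoter alone. The SD is over 3 replicate indices, each against the median construct of its own replicate. It therefore also holds the spread of that median. The groups of replicates lay far apart, but the rule favours such gaps. Separation of replicates in EP order, here and below, is therefore only a description. Before P022+, a promoter with an activity of 7.30 alone, E076 gave 5.06, 5.66 and 6.52 (boost index -0.21 ± 0.10). Before P010+, the Clasp1 promoter, it gave 1.16, 1.19 and 1.20, against 4.64, 4.86 and 4.85 for the promoter alone. That pair ranked 169 of 171 with this promoter (boost index -1.55 ± 0.02), so the same oriented cCRE stood near the top of one promoter's list and near the bottom of another's. Before P006-, a fragment 231 bp from Tsn, the values were 0.00597, 0.0754 and 0.0197, a spread too wide to place the pair (boost index -1.29 ± 1.37).

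E203, in the + orientation only in EP order, gave 1.5, 1.96 and 1.97 before P016-, against 0.0871, 0.107 and 0.112 for P016- alone. The boost index was 4.94 ± 0.11, rank 12 of 288, and the activity was 17.7-fold the promoter alone. Before the same promoter turned round, P016+, E203+ gave 0.0431, 0.0244 and 0.0274 (boost index -0.56 ± 0.93), which is 58.6-fold lower, with no overlap between replicates. None of its other 3 constructs exceeded 0.264 in any replicate. E203+ before P020-, the promoter of the lncRNA gene 3830432H09Rik, gave 0.264, 0.103 and 0.0255 (boost index 0.05 ± 1.36). With P015+ it was listed at 0, 0.0105 and 0, and with P033+ at 0, 0 and 0.087.

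E251 was measured with P016 in all 4 arrangements of orientation. E251+ before P016- gave 2.75, 2.52 and 2.04, a boost index of 5.37 ± 0.49, rank 7 of 288 and 23.9-fold the promoter alone. With the cCRE turned round, E251- before P016- was listed at 0, 0.0535 and 0.2. With the promoter turned round, E251+ before P016+ was listed at 0.00913, 0.0165 and 0, and with both turned round the values were 0.00204, 0.0768 and 0.0259 (boost index -1.5 ± 2.19). Only 1 of the 4 arrangements of this pair was above 1 in any replicate. At P025+, the Cfap221 promoter, E251+ gave 2.22, 2.54 and 2.29 (boost index 0.17 ± 0.16), close to the promoter's 2.49. E251- there gave 0.780, 0.665 and 0.758 (boost index -1.51 ± 0.12), rank 175 of 177 and 3.20-fold below E251+. At the strong P022+, E251+ had a boost index of -0.52 ± 0.15 from 3.88, 4.74 and 5.32. With the Marco promoter in the + orientation, E251+ gave 0.00806, 0.00973 and 0.0168 (boost index -1.64 ± 0.65), its lowest.

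E110+ before P016- reached 3.25, 3.30 and 3.66, a boost index of 5.86 ± 0.30, rank 3 of 288 and 33.5-fold the promoter alone. E110+ before P016+ gave 0.0365, 0.0457 and 0.0124 (boost index -0.71 ± 1.16), 124-fold lower. Before P012-, the fragment at the Tfcp2l1 gene itself, E110+ gave 0.211, 0.260 and 0.454 (boost index 1.97 ± 0.31), or 1.88-fold the promoter alone. Before P022+ it gave 8.12, 8.37 and 9.13 (boost index 0.37 ± 0.03), and E110- before P024- gave 0.245, 0.254 and 0.360 (boost index 0.25 ± 0.15). E110 had no EP construct with a boost index under -1, unlike E076, E251 and E031. E203 had none either, but 2 of its 5 EP constructs had a replicate at 0 and so no index.

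E031 was measured before 19 oriented promoters in EP order. E031- before P033-, the Marco fragment, gave 3.91, 5.44 and 5.71, against 0.0221, 0.0586 and 0.0496 for P033- alone. This was the highest of 276 constructs with P033-, with a boost index of 7.13 ± 0.41 and an activity 124-fold the promoter alone. Turned round, E031+ before P033- was listed at 0, 0 and 0.0273. At the Ralb promoter in its weaker orientation, P018-, the same cCRE orientation was also the higher one, with 2.42, 2.83 and 3.54 for E031- (boost index 1.59 ± 0.08) and 0.535, 0.972 and 1.13 for E031+ (boost index -0.19 ± 0.29), a ratio of 3.46. At P025+ the ratio was 1.74, from 4.39, 5.30 and 5.19 for E031- (boost index 1.25 ± 0.14) and 2.65, 2.87 and 3.01 for E031+. In the other 6 EP pairs above 0 in both orientations of E031, the ratio of - over + lay between 0.547 and 1.49. At P022+, for example, E031+ had 8.54 and E031- 7.47. The lowest boost indices belonged to E031- before P006- (-1.91 ± 0.94 from 0.0147, 0.0209 and 0.00782), E031- before P016- (-1.67 ± 1.47 from 0.00711, 0.0137 and 0.0646) and E031+ before P016- (-1.52 ± 1.49 from 0.0061, 0.0732 and 0.0192). In EP order, E031 therefore had no high boost index with P016, the promoter at which the other 4 cCREs had their highest index. Its remaining boost indices lay between -1.49 and 1.21.

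The level of the promoter went with the spread of the boost index. With promoters of 0.5 or more alone, the boost indices of the 5 cCREs ran from -1.55 to 1.59, and 13 of 17 lay within 1 of 0, beside 84.5% of 1471 constructs of all cCREs with such promoters. With weaker promoters they ran from -1.91 to 7.13, and 5 of 26 (19.2%) were 2 or more, beside 22.3% of 3474 over all cCREs. All 5 high constructs had promoters of 0.101 or less alone, and their activities were 1.8 to 4.95, beside 4.23 to 8.54 for the members' EP constructs with P022+. The part that promoter level has in the choice of these cCREs was not tested.

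P016 recurred in both orientations, E076 with P016+ and E203, E251 and E110 with P016-. Over all cCREs, 235 oriented cCREs were measured before P016 in both orientations with every replicate above 0. A boost index of 2 or more was seen in 48 with P016- and in 51 with P016+, and in 29 with both. E203+ and E110+ are among those high with P016- only. E076 was not measured before P016-. P016 was a weak promoter in either orientation, and 23 of 288 cCRE constructs with P016- and 16 of 324 with P016+ had an activity of 1 or more.

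The PE constructs are other plasmids than those that chose the members, so they were tested. A boost index of 2 or more was found in 3 of 32 constructs, beside 22.3% of all 4720 PE constructs, and of -1 or less in 8 of 32, beside 19.8%. Against the promoter fragment alone, 21 of 32 differed (limma, Benjamini-Hochberg adjustment over all 4720 pairs, adjusted p under 0.05), 3 higher and 18 lower. Over all PE pairs 65.8% differed, 23.3% higher and 42.6% lower, so the share called was near the background and the share of higher calls was below it. Against the median construct with the same promoter, 12 of 32 differed, 6 of them higher, beside 50.5% and 34.2% over all pairs.

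The 3 that rose over the promoter alone came from 3 different cCREs. P033+ followed by E203- gave 0.654, 0.629 and 0.715, against 0.046, 0.0796 and 0.0674 for P033+ alone (log2 fold change 3.41, SE 0.25, limma with Benjamini-Hochberg adjusted p = 5.74e-05), with a boost index of 3.79 ± 0.52 and rank 30 of 275. The turned cCRE, E203+ after P033+, was listed at 0, 0.0803 and 0. P016- followed by E031- gave 0.480, 0.617 and 0.513 (log2 fold change 2.40, SE 0.21, limma adjusted p = 0.000103), rank 45 of 329. Both were higher than their promoter in 3 of 3 replicates, and both calls held when any replicate was left out. P020- followed by E251+ gave 0.241, 0.195 and 0.145 against 0.141, 0.0931 and 0.0879 (log2 fold change 0.85, SE 0.29, limma adjusted p = 0.0425), a call lost without replicate 2 (adjusted p = 0.224) or replicate 3 (0.0864).

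Among the 18 that fell, the largest losses came after the strong promoters P024+ and P022+. Whether the loss goes with promoter level was not tested. E031+ fell 2.54-fold after P018+, at 6.52 alone. After P012+, at 0.116 alone, E251- fell 10.5-fold, but its replicates were spread widely, at 0.00201, 0.0187 and 0.0357. E251+ after P024+, the promoter at Tmem177, gave 0.0929, 0.0458 and 0.0353, 50.9-fold below the promoter's 2.71 (limma adjusted p = 4.3e-05) and 6.24-fold below the median PE construct of 0.332, rank 236 of 252. E203+ after P024+ gave 0.0551, 0.14 and 0.125, 27.3-fold below the promoter (limma adjusted p = 8.99e-05) and 3.35-fold below the median construct. At P022+, whose median PE construct was 0.688 against 7.30 for the promoter alone, E203+ gave 0.406, 0.293 and 0.558, 18-fold below the promoter alone. Against the median construct this pair's log2 difference was -0.76 and was not called (limma adjusted p = 0.0674). E251- there gave 0.781, 0.792 and 0.698 and E031- gave 0.594, 0.465 and 0.432. Set against the median construct, E031+ was on the higher side after strong promoters. E031+ after P018+ gave 2.08, 2.91 and 2.78, below the promoter's 5.68, 6.57 and 7.43 but above the median construct's 0.507 (log2 difference 2.34, SE 0.22, limma adjusted p = 0.000242). E031+ after P024+ gave 0.565, 0.829 and 1.34 (log2 difference to the median construct 1.32, SE 0.36, limma adjusted p = 0.0231). E251+ after P022+ gave 1.23, 1.91 and 1.96 (1.28, SE 0.25, limma adjusted p = 0.00693). These 3 pairs lay below the promoter alone and above the median construct, so their direction depends on which is taken as the baseline.

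The remaining PE constructs were low. E203+ gave 0.0491, 0.0224 and 0.140 after P016-, 0.0998, 0.0136 and 0.0515 after P020-, and 0.229, 0.367 and 0.323 after P022-, with boost indices of -0.41 ± 1.34, -1.10 ± 1.33 and -0.42 ± 0.30. After P016+ it was listed at 0, 0.0752 and 0.0123. E251- after P012+, the Tfcp2l1 fragment, gave 0.00201, 0.0187 and 0.0357 (log2 fold change against the promoter -3.39, SE 1.04, limma adjusted p = 0.028), a call lost without replicate 2 (adjusted p = 0.0662). E251- after P016+ gave 0.059, 0.0187 and 0.0109 (limma adjusted p = 0.0301), lost with the replicate as a block (0.0556), without replicate 2 (0.133) and without replicate 3 (0.159). Calls against the promoter alone were also lost without replicate 2 for E251+ after P022- (adjusted p = 0.0504, limma) and E203+ after P022- (0.0671), and without replicate 3 for the latter (0.104) and for E031- after P013- (0.0944). Without replicate 1, calls were gained for P016- with E251+ (limma adjusted p = 0.00984), P016+ with E031+ (0.0412) and P016+ with E251+ (0.0476). E031+ after P020+ gave 0.061, 0.0128 and 0.117, after P016+ 0.0748, 0.0392 and 0.0613, and E031- after P013-, the Gli2 fragment, 0.0292, 0.0614 and 0.0443. E076- gave 0.0128, 0.0128 and 0.0386 after P012+, below the promoter's 0.104, 0.135 and 0.111 (log2 fold change -2.65, SE 0.47, limma adjusted p = 0.00295), and 0.112, 0.0225 and 0.137 after P014-. E076+ after P016+ gave 0.0784, 0.0871 and 0.120, and E110- after P016- gave 0.136, 0.096 and 0.0614, and neither differed from P016 alone by more than its SE.

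Promoter dependence was then asked in this second order, with the variance of the boost index between promoters against the variance between replicates (moderated F test with limma, Benjamini-Hochberg over 309 oriented cCREs). It passed in 266 of the 309, or 86.1%, so a pass is what most cCREs gave. E031- passed over 3 oriented promoters, whose mean boost indices spanned 3.57 (limma adjusted p = 1.87e-05), and its variance ranked 21 of 309. That span rested on 1 oriented promoter, P016- at 2.74, beside -0.48 for P022+ and -0.83 for P013-. E251+ passed over 7 with a span of 3.97 (limma adjusted p = 0.00113, rank 104), but not without replicate 2 (0.0617). E031+ passed over 7 with a span of 3.22 (limma adjusted p = 0.00271, rank 146), but not without replicate 1 (0.0712) or with the promoter alone as baseline (0.0861). E251- passed over 4 with a span of 2.82 (limma adjusted p = 0.0357, rank 142), but not with the replicate as a block (0.0666), without replicate 2 (0.183) or with the promoter alone as baseline (0.18). E203+ did not pass over 6 oriented promoters, P022 among them in both orientations, with a span of 1.30 (limma adjusted p = 0.427). Its variance ranked 305 of 309. With the promoter alone as baseline the span of E203+ was 3.90 and it passed (limma adjusted p = 1.97e-05), as it did over constructs of at least 0.05 in every replicate (0.0109). E076 had 2 oriented forms with 1 and 2 PE constructs and E110 a single one, too few for this test.

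For 17 oriented pairs of the 5 cCREs, both orders were measured, and 10 were above 0 in all replicates of both. EP was the higher order in 7 of 10, beside 1242 of 2234 pairs over all cCREs. Both EP constructs with a boost index of 2 or more among them were low in PE order. E203+ with P016- had 1.80 in EP order and 0.0536 in PE order, and E251+ with P016- had 2.42 and 0.0673, with no overlap between replicates of the orders in either pair. Over all cCREs, 283 of 402 such EP pairs kept a boost index of 2 or more in PE order. The reverse case was E031- with P016-, at 0.00711, 0.0137 and 0.0646 in EP order and 0.480, 0.617 and 0.513 in PE order. Pearson's r between the boost indices of both orders was -0.22 over the 10 pairs, which share fragments, and 0.64 over 2234 pairs of all cCREs. Since EP values chose the members, these are descriptions. E031- before P033-, E076- before P016+ and E110+ before P016- were not measured in PE order.

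The orientation of the cCRE could be tested in 4 PE comparisons, and 2 passed (limma, Benjamini-Hochberg over 1494 comparisons), beside 40.2% of all. After P016-, E031- was 5.46-fold higher than E031+, from 0.480, 0.617 and 0.513 against 0.0853, 0.111 and 0.0982 (log2 difference of + over - of -2.45, SE 0.23, limma adjusted p = 0.00109). The - orientation was thus the higher one in 3 of 3 replicates. It was not the higher one throughout. In EP order with the same promoter the ratio of - over + was 0.902, and E031 alone was higher in the + orientation. After P022+, E251+ was 2.20-fold higher than E251- (log2 difference 1.14, SE 0.27, limma adjusted p = 0.0199), a call lost without replicate 2 (0.146) or replicate 3 (0.142). For E251 after P016+ and after P022- the differences were 0.83 (SE 0.73, limma adjusted p = 0.414) and 0.23 (SE 0.43, adjusted p = 0.698), within the replicate error.

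Joined to another cCRE in place of a promoter, the 5 cCREs were mostly low. Their median activities in such pairs ran from 0.0253 to 0.129, beside 0.131 for all cCRE pairs, and 3.85% to 14.3% of the pairs had an activity of 1 or more, beside 19.9%. The highest pairs were E031+ followed by E017+, at 25.3, 24.7 and 25.5, and E251+ followed by E017+, at 20.6, 19.5 and 20.8. E017+ alone had 15.6. E076- and E203+ had their highest values before E060+, at 11.3 and 11.4, below the 15.5 of E060+ alone. E110- after E017- had 3.60, against 31.2 for E017- alone.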

How the data were processed

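Activities of barcoded reporter plasmids were measured in 3 biological replicates of the Tfcp2l1 Upstream mix. Deposited activities are a linear ratio, cDNA over pDNA barcodes, for every construct in every replicate, per the file headers and the labels' protocols. Bowtie2 and mm10 are named in the submitters' processing notes; barcode counting, filters and scaling are not given in the sources used here, so depth is unknown. The boost index that the authors deposited is on the log2 scale, and for all 5065 finite EP values it equalled log2 of the geometric mean over the deposited basal median ratio (tolerance 0.001). In the activity table, 3 value columns hold no single sample and were not used.

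Indices were recomputed the same way for both orders, leaving out constructs with a replicate at 0. The SD, the promoter dependence test and the tests against the median construct took each replicate's own median instead. The mean of the replicate indices can therefore differ from the index given. For P033+ with E203- it was 3.52, beside an index of 3.79. PE pairs, orientation and promoter dependence (at least 3 oriented promoters, each with at least 10 constructs) were tested on log2 activities with limma 3.58.1 (R 4.3.3) and Benjamini-Hochberg adjustment over all Tfcp2l1 constructs, called at an adjusted p under 0.05. On simulated data the pair test and the promoter dependence test made more false calls than this threshold implies, so calls close to it are uncertain. The pair fit with the replicate as a block recovered none of the changes put in. Only 200 of 4720 simulated pairs were changed, and no replicate effect was put in. In the data 65.8% of pairs were called, and 3097 of 4720 with the block, so the simulated shares may not carry over. Other steps ran in Python 3.11.15 (pandas 2.3.3, numpy 2.4.6). All 5 cCREs are named, with every construct where an order had up to 6, otherwise the 3 highest and lowest. Alternatives were a pseudocount of 0.01 for constructs at 0, a minimum activity of 0.05, the other baseline, the replicate as a block, leaving out each replicate, and, added after seeing the data, each construct's own variance. The labels give same-numbered values of a pair from one transfection, so numbers pair a construct with its baseline; deviations correlated at r = 0.129, 0.129 and 0.044. Members, motif list and tests were chosen with earlier results of these data known. Sequences are from RefSeq (GRCm38.p6), matched by gene symbol for 7 fragments. The sequences of P016, P022 and the other cCREs are not used here.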

Additional observations from a re-analysis of the deposited data

How the results depend on the processing

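Of 269 alternative values for named PE constructs and cCREs, 225 kept direction and side of the threshold, 25 lost the call, 5 gained it and 14 changed sign. With the median construct as baseline, the members' PE calls were 12 in place of 21, and with a minimum activity of 0.05 they were 13 of 16 tested. That baseline turned the log2 difference to 2.34 (P018+ with E031+), 1.32 (P024+ with E031+), 1.28 (P022+ with E251+), 0.36 (P006+ with E031+), 0.14 (P022+ with E251-), 0.33 (P014- with E076-), 0.29 (P016- with E031+), 0.22 (P016- with E110-) and -0.08 (P016+ with E076+).

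Leaving out 1 replicate moved the call counts from 16 to 24 for members' PE pairs, from 2 to 4 for promoter dependence, from 1 to 2 of 4 for orientation, and from 188 to 419 of all 1494 orientation comparisons (601 with all replicates). Single differences that changed sign ranged from -1.17 to 0.21 (P014- with E076-), -0.11 to 0.01 (P016- with E031+), -0.07 to 0.19 (P016+ with E076+), -0.51 to 0.24 (P016- with E110-) and -0.34 to 0.74 (orientation of E251 after P022-). None of these 5 differences was called with all replicates, and the cause was not tested. The range of EP boost indices of E031 was 9.04, and 9.22 to 9.75 with a replicate left out. With the replicate as a block, 20 of 32 PE pairs and 3 of 5 oriented cCREs were called, and the calls lost were P016+ with E251- and the promoter dependence of E251-.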
